A study of Mus musculus with 8 samples.

Results

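The genes described here are 6 of the 1329 in the table analysed. They were chosen by symbol: Acta2 (smooth muscle actin), Tpm1 and Tpm2 (tropomyosins), Cnn1 (calponin), Tagln (transgelin) and Lmod1 (leiomodin). RNA came from the ascending aorta of Fbn1mgR/mgR mice, a Marfan syndrome model in which fibrillin-1 is under-expressed, and the comparison asks how DT-061, an activator of protein phosphatase 2A, alters it. From 5 weeks of age, 4 libraries' mice received oral DT-061 at 5 mg/kg, 2 times a day for 4 weeks, and 4 libraries' mice received its vehicle, a solution of N,N-dimethylacetamide, Kolliphor HS-15 and diH20, on that schedule. Both groups carried the Fbn1 genotype, no library of another genotype was analysed here, and no label gives the sex of the mice or says that each library came from a mouse of its own. So p-values here rest on the spread among these libraries alone, and that spread may be technical.

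Contraction of the aortic wall rests on thin filaments of actin that slide along filaments of myosin in smooth muscle cells. Each thin filament is a chain of smooth muscle actin along which tropomyosin lies, and calponin and transgelin bind to its side. Leiomodin starts new filaments. These proteins are textbook markers of the contractile state of vascular smooth muscle, and inherited variants of the actin gene are a known cause of thoracic aortic disease in people.

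Values are FPKM, fragments scaled by gene length and by the fragments of the library. Fragments per library, recovered from the steps between values, ranged from 14120712 to 22197544. Of 8 smooth muscle markers listed, 5 were in the table. Of these, 4 are members, and the other, Myh11, the smooth muscle myosin heavy chain gene, stood at 503.9 to 1356 FPKM in the 8 libraries. None of the 10 endothelial or 10 cardiac and skeletal muscle markers was in the table. That does not show that such cells were absent, because genes entered the table by a difference between the groups. By its deposited name, the table holds only genes that the authors found significant between these groups. In it, 95.4% of genes passed the test used here in either direction, with 30.4% that rose and 65.0% that fell. Neither a count of thin filament genes that pass nor the adjusted p of any single gene is therefore independent evidence.

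Each of the 6 thin filament genes rose (limma, threshold for the adjusted p of 0.05), from 1.496-fold for Tpm1 to 1.83-fold for Tpm2. Their median log2 change was 0.71, against -0.58 for all genes in the table. By mean FPKM, 435 genes of the table were higher with DT-061 and 894 lower, so the table's median is that of a mostly lower set. In all 6 the groups did not overlap. Over the table, 78.3% of genes had groups that did not overlap, 30.1% with DT-061 above and 48.2% with it below. All 6 also passed with DT-061 library 3 and vehicle library 4 both left out. With each library rescaled to one median all 6 rose, as did 32.7% of the table, and with quantile normalization 4 did, against 29.6%. Both methods used only this table, where most genes were lower with DT-061, and shifted log2 changes by a median of 0.69 and 0.56. A rise kept under the median rescaling is therefore no check of that rise. Changes are differences of log2(FPKM + 1), DT-061 minus vehicle, a scale that understates the change of genes with low FPKM. In bulk tissue, more smooth muscle cells and more of these transcripts per cell cannot be told apart.

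**Figure D1:**
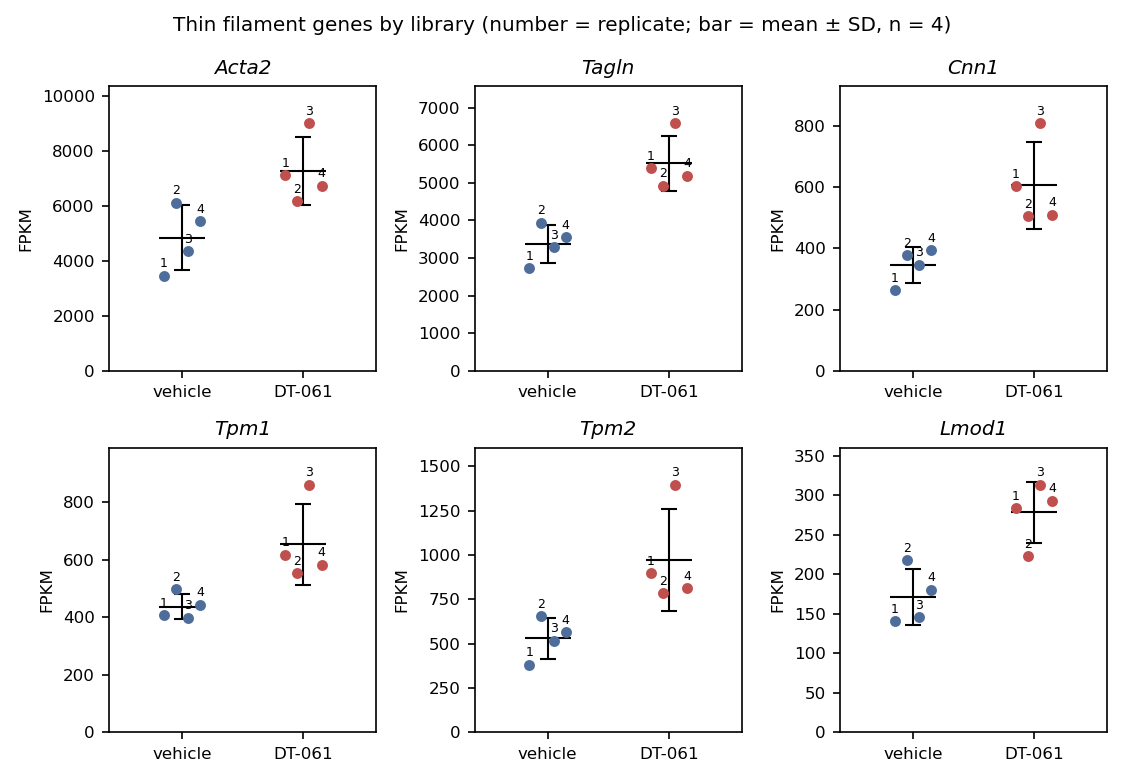
FPKM of each thin filament gene (vertical axis, linear from 0) in the 4 vehicle and 4 DT-061 libraries. Points are libraries with their replicate number and bars are the mean ± SD; DT-061 library 3 is the highest point in all 6 panels, and the groups come closest in Acta2 and Lmod1.

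Acta2 (Ensembl ENSMUSG00000035783, GRCm38 chromosome 19, 34241090 to 34255590, minus strand) encodes the actin that forms the filament, and it had the highest FPKM of the table in every library. Its level was 7124, 6165, 9006 and 6731 FPKM in DT-061 libraries 1 to 4 and 3458, 6118, 4356 and 5446 FPKM in vehicle libraries 1 to 4. The groups almost touched: DT-061 library 2, the lowest of its group, was 0.758% above vehicle library 2, the highest of the other. The means were 7256 ± 1231 and 4845 ± 1176 FPKM (SD, n = 4), which is 0.60 ± 0.21 on the log2 scale (SE, adjusted p by limma 0.0258). This was the least stable of the 6 calls, lost without DT-061 library 1 (0.61, adjusted p by limma 0.0538), DT-061 library 3 (0.49 and 0.0599) or vehicle library 3 (0.56 and 0.0603). Quantile normalization gave a change of 0 for Acta2, because a gene at rank 1 in all 8 libraries is set to one value by that method.

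Of the RefSeq promoter windows (GRCm38.p6, 250 bases before to 50 after a gene's start), the table held those of 5 members: Acta2, Tpm1, Tpm2, Cnn1 and Lmod1. Serum response factor, a transcription factor known to drive contractile genes with its partner myocardin, binds the CArG box, which has 2 C, 6 letters of A or T and 2 G. Windows were searched on both strands for it and for a variant with 1 of the 6 core letters off. Only the Acta2 window of these 5 had a match: CCCTATATGG, 84 bases before the start, and CCTTGTTTGG, 34 bases before it, both variants. Sites with a letter off in the outer C or G pairs were not counted, and sequence outside these windows was not searched. The lack of a match in the other windows therefore does not show that those genes lack such sites. Of all 32851 windows, 1.63% held a CArG box, 9.98% held a box or a variant, and 0.822% held at least 2. The windows shown are that of Acta2, for these letters, and those of Tpm1 and Tpm2, the tropomyosin pair whose ratio differed most between the groups. They are written 5′ to 3′ on the gene's strand, with CArG variants in capitals.
Acta2 (chr19:34255324-34255623, minus strand): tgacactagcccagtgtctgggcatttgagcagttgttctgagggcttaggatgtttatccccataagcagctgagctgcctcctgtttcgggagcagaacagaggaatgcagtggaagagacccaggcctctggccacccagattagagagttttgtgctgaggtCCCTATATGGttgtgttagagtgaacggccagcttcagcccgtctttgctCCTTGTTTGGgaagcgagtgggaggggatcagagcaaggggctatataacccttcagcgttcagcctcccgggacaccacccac
Tpm1 (chr9:67049164-67049463, minus strand): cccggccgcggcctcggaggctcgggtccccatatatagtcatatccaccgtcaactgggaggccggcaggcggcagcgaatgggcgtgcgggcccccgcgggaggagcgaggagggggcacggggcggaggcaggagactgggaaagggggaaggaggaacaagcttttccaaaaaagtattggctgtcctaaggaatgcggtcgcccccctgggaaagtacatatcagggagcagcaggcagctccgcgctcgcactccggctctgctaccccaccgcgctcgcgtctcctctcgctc
Tpm2 (chr4:43523505-43523804, minus strand): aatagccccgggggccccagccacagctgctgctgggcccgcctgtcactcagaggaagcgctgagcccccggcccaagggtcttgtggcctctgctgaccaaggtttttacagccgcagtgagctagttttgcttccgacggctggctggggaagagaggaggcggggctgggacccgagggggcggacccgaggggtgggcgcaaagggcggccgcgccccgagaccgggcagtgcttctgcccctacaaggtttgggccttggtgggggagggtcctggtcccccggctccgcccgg
The tropomyosin windows were rich in G and C, at 66.3% for Tpm1 and 70.3% for Tpm2, with 27 and 20 CG pairs. The median over all windows was 52.7% and 7 CG pairs. The windows of Acta2, Cnn1 and Lmod1 were nearer to it, at 54.7%, 59.3% and 55.0% and with 6, 6 and 7 CG pairs. The letters TATAA, searched on both strands, were in the Acta2 window and not in the other 4. They were in 24.9% of all windows.

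Tpm2 (ENSMUSG00000028464, chromosome 4, 43514711 to 43523765, minus strand) encodes the tropomyosin known as the beta form. Its level was 897, 784, 1396 and 813 FPKM in DT-061 libraries 1 to 4, and 382, 656, 517 and 566 FPKM in vehicle libraries 1 to 4. DT-061 library 3 stood well above the other libraries, and the lowest DT-061 value was 19.6% above the highest vehicle value. The means were 972 ± 286 and 530 ± 114 FPKM (SD, n = 4), a 1.83-fold difference and 0.86 ± 0.23 on the log2 scale (SE, adjusted p by limma 0.0180). Tpm1 (ENSMUSG00000032366, chromosome 9, 67022590 to 67049406, minus strand) encodes the alpha form. It held 618, 554, 860 and 582 FPKM with DT-061 and 408, 497, 398 and 444 FPKM with vehicle. Again DT-061 library 3 was highest and the groups did not overlap. The means were 654 ± 140 and 437 ± 44.6 FPKM (SD, n = 4). On the log2 scale Tpm1 rose by 0.56 ± 0.16 (SE, adjusted p by limma 0.0182). Both genes make several tropomyosins by splicing, and values per gene do not separate the smooth muscle forms.

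The remaining tropomyosin gene of the table, Tpm3, which makes forms of non-muscle cells and slow skeletal muscle, went the other way. It held 85.2, 89.7, 66.3 and 89.0 FPKM in DT-061 libraries 1 to 4 and 134, 124, 115 and 113 FPKM in vehicle libraries 1 to 4. It was lowest in DT-061 library 3, where Tpm1 and Tpm2 were highest. Tpm3 fell by 0.56 ± 0.12 on the log2 scale (SE, adjusted p by limma 0.0158), but turned to higher at 0.29, not past the threshold, with each library rescaled to one median. A share within a library does not move with such a scaling. The share of Tpm3 also drops when Tpm1 and Tpm2 rise, so it does not show a fall of Tpm3 itself. Tpm3 made up 5.33%, 6.28%, 2.85% and 5.99% of the summed FPKM of Tpm1, Tpm2 and Tpm3 with DT-061, and 14.5%, 9.69%, 11.1% and 10.1% with vehicle. The means were 5.11% ± 1.56 and 11.3% ± 2.18 (SD, n = 4), with no overlap between the groups and no test. Tpm2 made up 56.5% ± 2.49 and 48.3% ± 4.68, and Tpm1 38.4% ± 0.958 and 40.3% ± 2.59. Tpm4 was not analysed here.

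**Figure D2:**
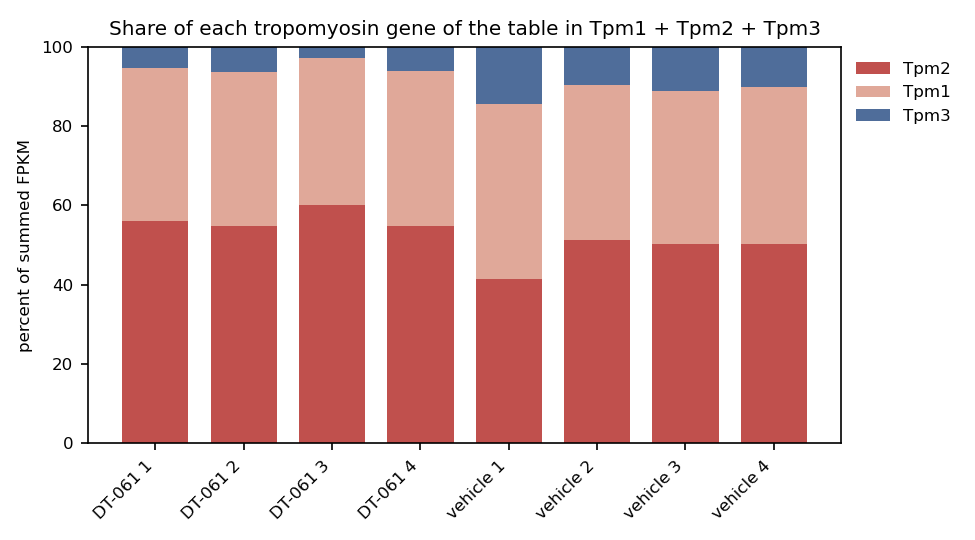
Share of Tpm1, Tpm2 and Tpm3 in their summed FPKM (vertical axis, percent) for each of the 8 libraries (horizontal axis). The Tpm3 part is 2.85% to 6.28% in the DT-061 bars and 9.69% to 14.5% in the vehicle bars.

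Cnn1 (ENSMUSG00000001349, chromosome 9, 22099216 to 22109630, plus strand) encodes calponin, which binds actin and slows the myosin ATPase. Its level was 602, 504.5, 808 and 509 FPKM in DT-061 libraries 1 to 4 and 264, 378, 347 and 394 FPKM in vehicle libraries 1 to 4. The groups were 28.2% apart at their nearest values, the widest gap of the 6 genes. The means were 606 ± 142 and 346 ± 58.0 FPKM (SD, n = 4). Cnn1 was thus 1.75-fold higher, or 0.80 ± 0.19 on the log2 scale (SE, adjusted p by limma 0.0164).

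Tagln (ENSMUSG00000032085, chromosome 9, 45929619 to 45936058, minus strand) encodes transgelin, an actin-binding protein of the calponin family. It held 5396, 4924, 6585 and 5186 FPKM with DT-061 and 2727, 3944, 3288 and 3559 FPKM with vehicle. The nearest values of the groups were 24.8% apart, and the order of the libraries was that of Acta2 within the vehicle group and within the DT-061 group. The means were 5523 ± 734 and 3380 ± 511 FPKM (SD, n = 4), 1.63-fold. Tagln rose by 0.71 ± 0.15 on the log2 scale (SE, adjusted p by limma 0.0158). The call was lost with quantile normalization (0.15, adjusted p by limma 0.508), and Tagln had rank 2 or 3 of the table in every library. In GENCODE M21, exons of Gm48529 on the other strand cover 1241 of the 1988 exonic bases of Tagln (62.4%) and exons of Pcsk7 cover 108. No source used here gives the strand setting of the counting, so reads of these genes cannot be told apart. Exons of the other 5 members met no other gene's exons, and no stretch of 75 bases of their transcripts occurred in a transcript of another gene.

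Lmod1 (ENSMUSG00000048096, chromosome 1, 135324807 to 135368065, plus strand) encodes the leiomodin of smooth muscle, which nucleates actin. Its level was 283, 223, 313 and 293 FPKM in DT-061 libraries 1 to 4 and 141, 218, 146 and 181 FPKM in vehicle libraries 1 to 4. As in Acta2, DT-061 library 2 and vehicle library 2 were the nearest values, 2.47% apart. The means were 278 ± 38.7 and 171 ± 35.8 FPKM (SD, n = 4). This was a 1.63-fold difference, 0.71 ± 0.17 on the log2 scale (SE, adjusted p by limma 0.0164).

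By FPKM, a level per length, the order was Acta2, Tagln, Tpm2, Tpm1, Cnn1 and Lmod1. Each neighbour pair kept its order in all 8 libraries except Tpm2 and Tpm1, which kept it in 7 and crossed in vehicle library 1 (382 against 408 FPKM). Set over the spread between libraries, neighbours were less distinct. The ranges of Acta2 and Tagln, and of Tpm2 and Tpm1, overlapped within both groups, and those of Tpm1 and Cnn1 within the DT-061 group (554 to 860 against 504.5 to 808 FPKM). Recovered lengths were below the annotated exonic lengths in all members but Lmod1 (3948 bases in both). They were 2890 against 6485 bases for Tpm1, 1781 against 2196 for Acta2 and 1586 against 1988 for Tagln. For Tpm2 they were 2175 against 2909 bases, and for Cnn1 2368 against 2736. The places of these genes in the order therefore depend on that choice, and their changes between groups do not.

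The 6 genes together took 2.75%, 2.42%, 3.52% and 2.60% of all fragments in DT-061 libraries 1 to 4 and 1.37%, 2.18%, 1.66% and 1.95% in vehicle libraries 1 to 4. The means were 2.82% ± 0.482 and 1.79% ± 0.351 (SD, n = 4), 1.58-fold, with no test. Acta2 alone took 1.098% to 1.604% with DT-061 and 0.616% to 1.090% with vehicle. Even Lmod1, the least abundant, had 8979 to 19084 fragments in a library, so counting error was small beside the spread between libraries. Genes of the table that were lower with DT-061 and whose fragments could be recovered, 783 of 894, took 1.71% ± 0.300 of the fragments in the treated group against 4.02% ± 1.22 in the controls (SD, n = 4). The part of this shift in the rise of the members was not tested.

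**Figure D3:**
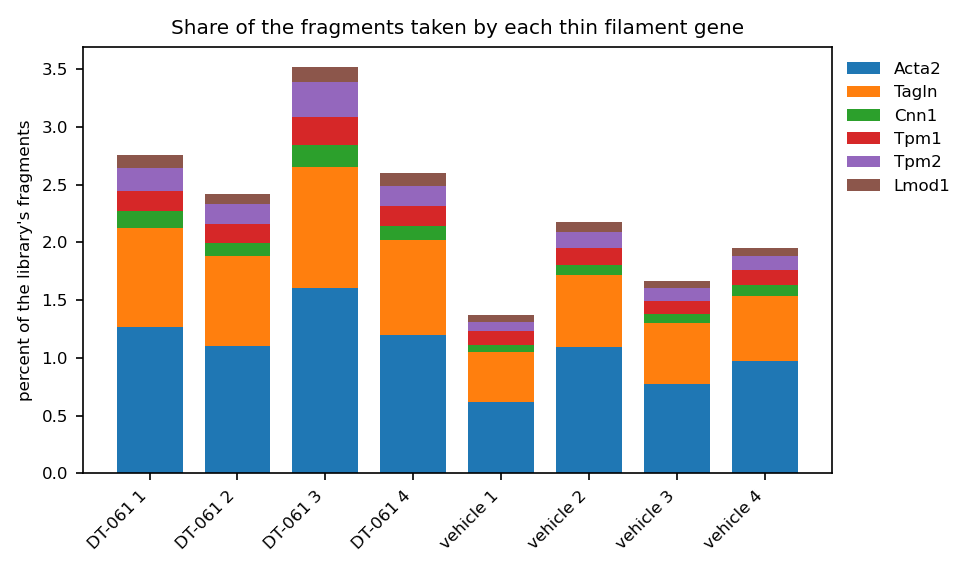
Percent of a library's fragments (vertical axis, linear from 0) taken by each thin filament gene, stacked for each of the 8 libraries (horizontal axis). The DT-061 bars reach 2.42% to 3.52% and the vehicle bars 1.37% to 2.18%.

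A ratio of 2 genes within a library is free of the scaling of that library, and the 15 ratios between members were compared between groups by a two-sided exact permutation test. None of the 15 passed after Benjamini-Hochberg adjustment over the 15 (smallest adjusted p = 0.214, exact permutation test). In this design at least 9 of the 15 would have to reach the smallest possible p for any to pass, so the adjusted test says little about a single ratio and does not show that the genes moved alike. The 2 with an unadjusted p under 0.05, each at 0.0286, the smallest that 4 against 4 libraries allow in an exact test, both involved Tpm2. Tpm2 per Acta2 was 0.126, 0.127, 0.155 and 0.121 with DT-061 and 0.111, 0.107, 0.119 and 0.104 with vehicle. It was higher in each DT-061 library than in any vehicle library, by 0.26 on the log2 scale. That difference became 0.18 without DT-061 library 3, and 0.15 with vehicle library 4 left out as well. Tpm1 per Tpm2 was 0.689, 0.706, 0.616 and 0.717 with DT-061 and 1.07, 0.758, 0.770 and 0.784 with vehicle. It was lower in each DT-061 library, with a log2 difference of -0.30, the largest of the 15, which became -0.18 without vehicle library 1. The other ratios differed by less, and their groups overlapped. Tagln per Acta2 had a log2 ratio of -0.39 ± 0.053 in the treated libraries and -0.50 ± 0.147 in the controls (SD, n = 4; exact permutation p = 0.257, adjusted p = 0.524).

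**Figure D4:**
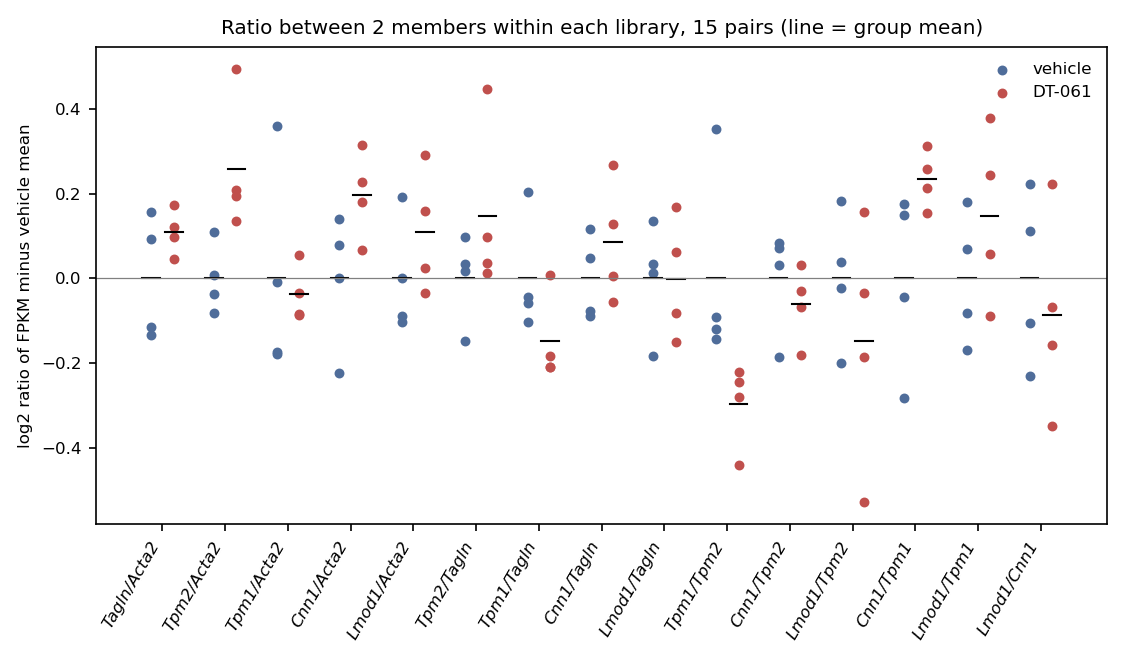
Log2 ratio of FPKM between 2 members within each library, minus the vehicle mean of that ratio (vertical axis), for the 15 pairs (horizontal axis). Points are libraries and lines are group means; only in Tpm2/Acta2 and Tpm1/Tpm2 do the groups stand clear of each other.

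The libraries ranked much alike in the 6 genes, though not in the same order in every gene. DT-061 library 3 was the highest and DT-061 library 2 the lowest of its group in 6 of 6 genes. Between them, DT-061 library 1 stood above DT-061 library 4 except in Lmod1 (283 against 293 FPKM). Vehicle library 1 was the lowest of its group in 5 genes, with vehicle library 3 lowest for Tpm1, and vehicle library 2 was the highest in 5, with vehicle library 4 highest for Cnn1. Deviations from the group means correlated between members with Pearson r from 0.68 (Cnn1 and Lmod1) to 0.98 (Acta2 and Tagln), with a median of 0.89 over the 15 pairs and 8 libraries. These values share the libraries and their scaling and are a description.

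Immune markers differed between these libraries too. B and plasma cell markers in the table (5 of 11, Ighm, Jchain, Igha, Igkc and Sdc1) summed to 24.1 to 76.8 FPKM with DT-061 and 156 to 5514 with vehicle. T and NK cell markers (10 of 15) summed to 2.29 to 8.42 against 6.36 to 77.4 FPKM, and monocyte and macrophage markers (3 of 15) to 6.51 to 28.4 against 30.1 to 151 FPKM. DT-061 library 3, highest in the thin filament genes, had the lowest sum of all 3 lists, and vehicle library 1, lowest in 5 of them, had the highest. Vehicle library 4 had the lowest sums of its group, with 156, 6.36 and 30.1 FPKM, while its thin filament share of 1.95% lay between those of vehicle libraries 3 and 2. Fibroblast markers in the table (4 of 12) summed to 192 to 299 FPKM with DT-061 and 437 to 550 with vehicle. The adipocyte markers Cfd and Retn (2 of 9) both fell, and summed to 74.1 to 335 against 498 to 1417 FPKM. Neutrophil and mast cell markers (3 of 12) also fell, with sums of 0.569 to 2.46 against 1.46 to 24.8 FPKM that overlapped. In the other direction, the Schwann cell and nerve marker Ncam1 (1 of 7) rose, from 12.0 to 18.9 FPKM in the controls to 21.1 to 34.2. No gene of these lists was at 0 in any library except S100a9, a neutrophil marker, in DT-061 library 3 and vehicle library 4. The part of these cell types in the rise of the thin filament genes was not tested.

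Among genes with a mean of at least 1 FPKM, the 5 whose values over the 8 libraries were most like the mean of the 6 standardized members were Dmpk, Zfp651, Myh11, Tprgl and Adcy5 (Pearson r from 0.989 to 0.997). The same 5 of 1095 led when only deviations from the group means were compared, with r from 0.965 to 0.990. All members enter that mean, and these values share the 8 libraries and their scaling. Dmpk, the myotonic dystrophy protein kinase, stood at 553 ± 89.2 against 373 ± 58.3 FPKM (SD, n = 4), 1.48-fold higher after DT-061 (adjusted p by limma 0.0181). Adcy5, an adenylate cyclase, rose by 0.67 ± 0.18 on the log2 scale (SE, adjusted p by limma 0.0175). The zinc finger gene Zfp651 and Tprgl moved less, with log2 changes of 0.28 ± 0.095 and 0.21 ± 0.081 (SE, adjusted p by limma 0.0243 and 0.0341). The call of Tprgl was lost on leaving out any library but DT-061 library 2 (adjusted p by limma from 0.0503 to 0.0723). It was also lost with DT-061 library 3 and vehicle library 4 both left out (0.0708). That of Zfp651 was lost on leaving out vehicle library 1 or 3 and with quantile normalization (from 0.0542 to 0.0580).

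Of 128 other symbols listed for the contractile apparatus and its control, 22 were in the table, and 20 rose and 2 fell (Tpm3 and Runx2). Some listed symbols are older names of a gene that is also listed, so the symbols outnumber the genes. Over the whole table, which was selected as significant, 95.4% of genes passed, 30.4% higher and 65.0% lower. That all 22 passed is therefore no result about these lists, here or in the counts of each list. The lists were drawn up with earlier results of these data known. Of 24 other thin filament genes and relatives, 3 were in the table. Besides Tpm3 these were Nexn, an actin-binding protein, and Pdlim7, a PDZ and LIM domain protein, which rose by 0.43 ± 0.10 and 0.55 ± 0.16 on the log2 scale (SE, adjusted p by limma 0.0164 and 0.0189). None of the 25 striated muscle thin filament and troponin genes listed was in the table.

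Of 21 symbols listed for myosin, its kinase and its phosphatase, 5 were in the table and all 5 rose, with a median log2 change of 0.72. The inhibitor of myosin phosphatase Ppp1r14a was 1.61-fold higher, and Ppp1r12b, a targeting subunit of that phosphatase, 1.45-fold. The light chain gene Myl6 had 3259 ± 919 against 2135 ± 242 FPKM (SD, n = 4) and rose by 0.58 ± 0.19 on the log2 scale (SE, adjusted p by limma 0.0242), which became -0.024 with quantile normalization. Ppp1r14a was not past the threshold without DT-061 library 3, nor Myl6 without vehicle library 1 or 3 (adjusted p by limma 0.0508, 0.0514 and 0.0508). Myh11 rose by 0.79 ± 0.17 and Myl9, a regulatory light chain gene, by 0.98 ± 0.22 on the log2 scale (SE, adjusted p by limma 0.0158 for both).

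In the list for serum response factor and its targets, 6 of 22 symbols were in the table, Cnn1 among them, and all 6 rose, with a median log2 change of 0.67. The LIM domain genes Csrp1 and Csrp2, of which the latter marks smooth muscle, had log2 changes of 0.70 ± 0.20 and 0.65 ± 0.13 (SE, adjusted p by limma 0.0185 and 0.0147). Tgfb1i1, a LIM adaptor of focal adhesions, rose by 0.60 ± 0.15 and the transcription factor gene Gata6 by 0.41 ± 0.085 (adjusted p by limma 0.0168 and 0.0158). Carmn, a long non-coding RNA of smooth muscle, rose by 1.22 ± 0.46 (SE, adjusted p by limma 0.0323). It held 31.1, 47.0, 116 and 27.4 FPKM with DT-061 and 13.3, 28.2, 15.6 and 24.0 with vehicle. Its groups overlapped and DT-061 library 3 stood far above the rest. Without that library the change of Carmn was 0.79 (adjusted p by limma 0.0486), and its call was lost without DT-061 library 2 or vehicle library 1 or 3 (adjusted p by limma from 0.0617 to 0.0743). Srf and Myocd were not analysed here.

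Of 27 genes listed for the anchoring of actin to the membrane and for intermediate filaments, 8 were in the table. All 8 rose, with a median log2 change of 0.64, and Kcnmb1, counted among them, is of neither kind. The actin crosslinker gene Flna had 1263 ± 289 against 755 ± 111 FPKM and the focal adhesion gene Zyx 429 ± 45.9 against 257 ± 28.7 (SD, n = 4), both 1.67-fold. Vim, the vimentin gene, rose by 0.52 ± 0.11, Itga8, an integrin gene, by 0.65 ± 0.13, Pdlim3 by 0.75 ± 0.12 and Kcnmb1, a potassium channel subunit gene, by 0.55 ± 0.14 on the log2 scale. With quantile normalization, Flna, Vim and Csrp1 were no longer past the threshold (adjusted p by limma 0.0558, 0.385 and 0.0649). Of 16 symbols listed for the synthetic state of smooth muscle, only Runx2, a transcription factor of bone formation, was in the table. Its values were low, 0.384 to 1.02 FPKM with DT-061 and 1.16 to 2.08 with vehicle, and its log2 change of -0.58 ± 0.19 (SE, adjusted p by limma 0.0227) became -0.15 with the median rescaling and 0.33 with quantile normalization. Without vehicle library 3 Runx2 was not past the threshold (-0.51, adjusted p by limma 0.0566).

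**Figure D5:**
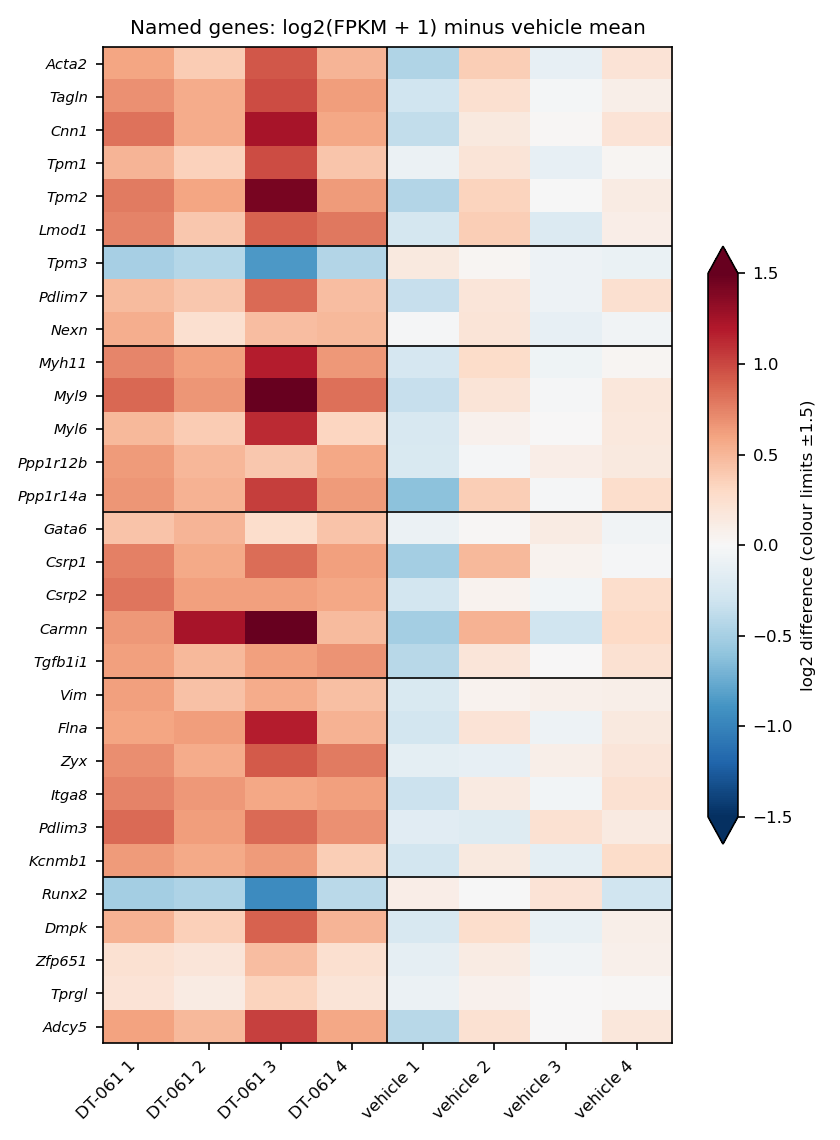
Log2(FPKM + 1) minus the vehicle mean (colour, limits ±1.5) for the 30 named genes (rows, in the groups described in the text) and 8 libraries (columns). The 6 thin filament genes at the top are darkest in DT-061 library 3, and Tpm3 and Runx2 are the blue rows in the DT-061 columns.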

How the data were processed

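Poly-A RNA of 8 libraries was sequenced as paired-end reads, per the labels' protocols. The submitters' processing notes name featureCounts 1.5.0-p3, HISAT2 2.0.5 and StringTie 1.3.3b as tools and mm10 as the build, with no roles. The deposited values are FPKM made by the authors, in a table of 1329 genes whose deposited name calls them significant; no source used here gives that test or its threshold. Ensembl IDs were matched to symbols for 1328 genes, and exons came from GENCODE M21 (GRCm38, the same build as mm10).

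In each library, FPKM times gene length moves in steps of 1 fragment. Library totals were found by a search for the values at which the most genes held whole fragments (within 0.03) at their annotated length. With these totals, 147 genes held whole fragments in all 8 libraries at that length. A length that gave whole fragments in every library was then found for 1213 genes, which left out genes with under 20 fragments on average.

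The test was limma 3.58.1 in R 4.3.3 (trend and robust options) on log2(FPKM + 1), with treatment as the only term, all 1329 genes, Benjamini-Hochberg adjustment and a threshold of 0.05. It was tested on simulated data. Rose and fell mean past that threshold. Named genes were the 6 members, up to 6 genes of each pathway list by mean FPKM, and the 5 most like the members by each of 2 measures. Ratios used exact permutation tests in scipy 1.17.1. Members and lists were chosen with earlier results of these data known. Same-numbered libraries did not deviate together (correlations of deviations from the group means of 0.18, -0.11, -0.052 and -0.47), so numbers were not taken as pairs.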

Additional observations from a re-analysis of the deposited data

Results flagged for a closer look

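In 92 groups of 4 values (named genes, ratios between members, and their share of fragments), 9 had a library far from the other 3, past Dixon's critical value for a group of 4. Chance flags about 1 in 20 such groups, and the values of one library are not independent of each other. DT-061 library 3 was high for Pdlim7 (167 FPKM, others 122 to 128), Myl9 (4900, others 2578 to 2971), Myl6 (4623, others 2663 to 2984) and Flna (1694, others 1076 to 1156). Its ratio of Tpm1 to Tagln was 0.131, against 0.112 to 0.114 in the other DT-061 libraries. DT-061 library 1 was high for Csrp2, at 1606 FPKM against 1377 to 1407. Vehicle library 1 was low for Vim, at 1726 FPKM against 2100 to 2144. In that library, Tpm1 per Tagln was 0.1497, against 0.121 to 0.126, and Tpm1 per Tpm2 was 1.07, against 0.758 to 0.784.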

How the results depend on the processing

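All 6 thin filament genes stayed past the threshold with a pseudocount of 0.1, a minimum mean of 1 FPKM, limma without the trend and robust options, the median rescaling, and with DT-061 library 3 and vehicle library 4 both left out. The median rescaling and quantile normalization shifted the log2 changes of all genes by a median of 0.69 and 0.56. The members changed by 1.41 to 1.71 under the median rescaling. Most genes of the table were lower with DT-061, so that rescaling raised the changes, and a rise kept under it is no check. Under quantile normalization the members changed by 0 (Acta2) to 0.87 (Lmod1), and Acta2 and Tagln (0.15) lost their calls. Over the table, 404 higher and 864 lower calls became 434 and 299 under the median rescaling, or 394 and 210 under quantile normalization.

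With the replicate block, which adds the replicate number as a term, 4 of 6 members passed: Acta2 (0.60, adjusted p by limma 0.0696) and Tpm1 (0.56 and 0.05001) did not. Calls were also lost for Carmn (0.0530), Myl6 (0.0546), Zfp651 (0.0698), Runx2 (0.0710) and Tprgl (0.109), and for no other named gene. The higher calls over the table numbered 204 and the lower calls 630. Leaving out 1 library at a time gave 254 to 351 higher calls, the lowest without vehicle library 3. It gave log2 changes of 0.45 to 0.73 for Acta2, and the other 5 members passed in all 8 cases, with an adjusted p by limma of at most 0.0430. The order of the changes was not fixed: Cnn1 (0.72) and Tpm2 (0.71) changed places with DT-061 library 3 and vehicle library 4 both left out, and Acta2 (0.45) and Tpm1 (0.53) without vehicle library 1. The members' share of fragments, DT-061 over vehicle, was 1.45-fold to 1.70-fold in these cases and 1.44-fold as a share of summed FPKM.

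Directions turned for Tpm3, at 0.29 with the median rescaling, and for Myl6 and Runx2, at -0.024 and 0.33 with quantile normalization. With 1 library, or DT-061 library 3 and vehicle library 4 both, left out, the log2 difference of Lmod1 per Tagln ran from -0.061 to 0.050, that of Tpm1 per Acta2 from -0.13 to 0.083 and that of Cnn1 per Tpm2 from -0.12 to 0.0063. With that pair left out, Lmod1 per Tagln was at 0.031. The cause was not tested. With 4 against 4 libraries the exact test of a ratio cannot go below 0.0286, and with 1 library left out it cannot pass.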
